A study of Homo sapiens with 4 samples.

Results

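Chromatin accessibility at p53 target genes was examined in TMD8 cells with and without silencing of IRF4. The genes were CDKN1A, MDM2, ZMAT3, RRM2B, TP53INP1, SESN1, SESN2, BTG2 and GADD45A (9 genes). They were taken by name as established p53 targets, with earlier results of these data known. A region of open chromatin counted by the authors, here called an interval, was taken as a member when its midpoint lay inside the body of one of these genes, or else when one of them had the nearest protein-coding gene end within 100 kb. This gave 39 of the 73135 intervals, at 8 of the 9 genes, and TP53INP1 received 0.

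The assay was ATAC-seq, in which a transposase inserts sequencing adapters into DNA that is not wrapped in nucleosomes, so that reads pile up where chromatin is open. TMD8 is an established line of the activated B cell-like (ABC) type of diffuse large B cell lymphoma. The libraries form a shIRF4 group, in which a short hairpin RNA was directed at the transcription factor gene IRF4, and a control group, which the series' design text describes as carrying a scrambled hairpin. Each group holds 2 libraries, called replicates 1 and 2. Sample titles say shIRF4 and library names say siIRF4, and nothing in the labels gives the time after silencing, the degree of knockdown or whether replicates came from separate cultures, so the p-values measure only the spread between these libraries, which may be technical.

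The p53 protein is a transcription factor that is held at low levels by MDM2 and accumulates after DNA damage and other stress. It then binds pairs of a short half-site near its target genes, which arrest the cell cycle, repair DNA, restrain growth signalling or start cell death. In B cell lymphoma this arm is one of the known routes by which cells stop dividing or die, and it is often weakened by changes in its regulators.

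Read totals over all intervals were 17954924 and 9112860 in the shIRF4 libraries and 12152153 and 13609123 in the control libraries. The shIRF4 pair differed by more than counting noise (chi-square per degree of freedom 2.01), and the control pair by little more than it (1.04). Of the B cell marker genes, 6 of 6 had an interval, and the strongest interval of each lay between 19.9 and 132 CPM (counts per 1000000 counts of the library, scaled with TMM factors) in shIRF4 and between 17.1 and 124 CPM in control. Of the markers of other cell types, 10 of 11 had one, between 2.12 and 26.8 CPM in shIRF4 and between 1.97 and 26.7 CPM in control, and the erythroid gene GATA1 had none. At IRF4, 2 of 15 intervals were lower and 0 higher, and accessibility of its DNA does not measure its RNA, so the knockdown was not checked here.

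The promoters on which the comparison turns are shown first. RefSeq (GRCh38.p14) windows of 300 bases, running from 250 bases before to 50 bases after a start site, were at hand for 6 of the 9 genes, 12 windows in all. Capitals mark a p53 half-site, with its inner core exact and at most 1 mismatch in its flanks. The inner MDM2 window is shown because it holds 2 half-sites, the SESN1 windows because one lies under the only promoter interval that passed the test and another holds the one half-site without a mismatch, and those of BTG2 and CDKN1A because intervals beside them changed.
MDM2 inner promoter, chr12:68808767-68809066, plus strand: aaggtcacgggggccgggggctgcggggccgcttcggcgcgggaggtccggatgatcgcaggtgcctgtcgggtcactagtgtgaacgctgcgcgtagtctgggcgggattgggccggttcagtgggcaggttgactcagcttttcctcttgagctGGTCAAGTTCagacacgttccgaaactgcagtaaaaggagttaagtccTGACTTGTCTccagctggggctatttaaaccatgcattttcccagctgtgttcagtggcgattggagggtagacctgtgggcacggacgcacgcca
SESN1 outer promoter, chr6:109094797-109095096, minus strand: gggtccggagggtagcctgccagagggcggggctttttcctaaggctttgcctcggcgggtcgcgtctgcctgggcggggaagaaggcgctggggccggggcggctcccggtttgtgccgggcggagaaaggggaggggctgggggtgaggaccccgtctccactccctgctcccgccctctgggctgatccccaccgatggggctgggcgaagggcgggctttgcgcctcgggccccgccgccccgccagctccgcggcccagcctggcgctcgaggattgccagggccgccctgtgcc
SESN1 innermost promoter, chr6:109008939-109009238, minus strand: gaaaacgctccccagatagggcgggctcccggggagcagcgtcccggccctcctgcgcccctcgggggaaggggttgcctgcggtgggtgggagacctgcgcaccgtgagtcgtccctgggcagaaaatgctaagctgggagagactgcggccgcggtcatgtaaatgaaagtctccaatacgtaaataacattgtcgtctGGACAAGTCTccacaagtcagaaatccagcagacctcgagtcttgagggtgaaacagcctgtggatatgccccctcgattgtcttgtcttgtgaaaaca
BTG2 promoter, chr1:203305269-203305568, plus strand: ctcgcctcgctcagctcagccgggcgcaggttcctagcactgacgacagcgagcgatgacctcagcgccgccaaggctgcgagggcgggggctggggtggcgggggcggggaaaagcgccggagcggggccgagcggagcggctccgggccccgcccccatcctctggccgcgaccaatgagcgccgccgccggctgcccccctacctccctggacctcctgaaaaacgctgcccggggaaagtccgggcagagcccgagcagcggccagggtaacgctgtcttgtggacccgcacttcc
CDKN1A promoter, chr6:36678464-36678763, plus strand: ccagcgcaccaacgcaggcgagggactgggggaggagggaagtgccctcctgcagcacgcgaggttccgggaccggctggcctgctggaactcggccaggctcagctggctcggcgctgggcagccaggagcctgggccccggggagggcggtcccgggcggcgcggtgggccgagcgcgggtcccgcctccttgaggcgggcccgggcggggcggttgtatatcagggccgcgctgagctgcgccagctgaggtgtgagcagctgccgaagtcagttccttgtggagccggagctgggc

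A half-site of this kind was present in 6 of the 12 member windows, all of them at MDM2 or SESN1, and in 30.6% of all 22198 windows. The MDM2 windows form pairs that overlap almost wholly, and the windows of SESN2, BTG2, ZMAT3 and CDKN1A held no such half-site. The exact half-site was present in 1 of 12 and in 6.21% of all windows. A pair of half-sites, each with at most 1 flank mismatch and at most 13 bases apart, was in 0 of 12 member windows. It was in 0.784% of all windows. The 2 half-sites of the inner MDM2 window lie farther apart and do not count as such a pair. A half-site with a mismatch in its inner core was not counted. The count of 0 pairs therefore does not show that these windows lack a p53 element. Interferon regulatory factors bind GAAA repeated after a gap of 2 bases, or GGAA followed by GAAA at the same gap with an ETS partner. With both strands searched, each of these elements was in 0 of 12 member windows, against 3.17% of all windows for the GAAA repeat and 2.52% for the GGAA form. The AP-1 element TGANTCA was in 2 of 12, both of them overlapping MDM2 windows, and in 6.15% of all windows. A match describes letters in a window and does not show binding.

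Across the 39 member intervals, all of which passed the filter on low counts, 6 were higher in shIRF4, 3 were lower and 30 were not called by edgeR's quasi-likelihood test at an adjusted p of 0.05, with Benjamini-Hochberg adjustment over all 73028 tested intervals. "Rose" and "fell" below refer to this test, and a log2 fold change is shIRF4 over control. The called share was 23.1% of members, against 22.8% of all tested intervals, so the members were called about as often as intervals in general. By direction, 15.4% of members were higher, against 7.26% of all intervals, and 7.69% were lower, against 15.5% of all intervals. The balance of calls turned when shIRF4 replicate 1 was left out, and fewer of all intervals were called then. Without that library, the 6 higher members kept a positive log2 fold change (0.22 to 0.83). The 3 lower members kept a negative one (-0.73 to -0.37). The median log2 fold change was 0.07 over the members and 0.01 over all tested intervals. Both shIRF4 libraries lay above both control libraries at 18 members and below them at 7, where 28.7% of all intervals lay above and 30.3% below. BTG2 alone, with 14 neighbouring intervals, gave 9 of the 18 above and 3 of the 7 below. CDKN1A gave 2 above and 2 below, and RRM2B 1 above and 2 below. The changes spread over 5 genes: BTG2 had 3 called intervals, ZMAT3 and CDKN1A 2 each, and SESN1 and RRM2B 1 each, while MDM2, SESN2 and GADD45A had none. DESeq2 called 2 of these 9 intervals, the 3′ end of BTG2 and the ZMAT3 interval at 179074073, and its adjusted p at the other 7 lay between 0.0641 and 0.438.

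**Figure D1:**
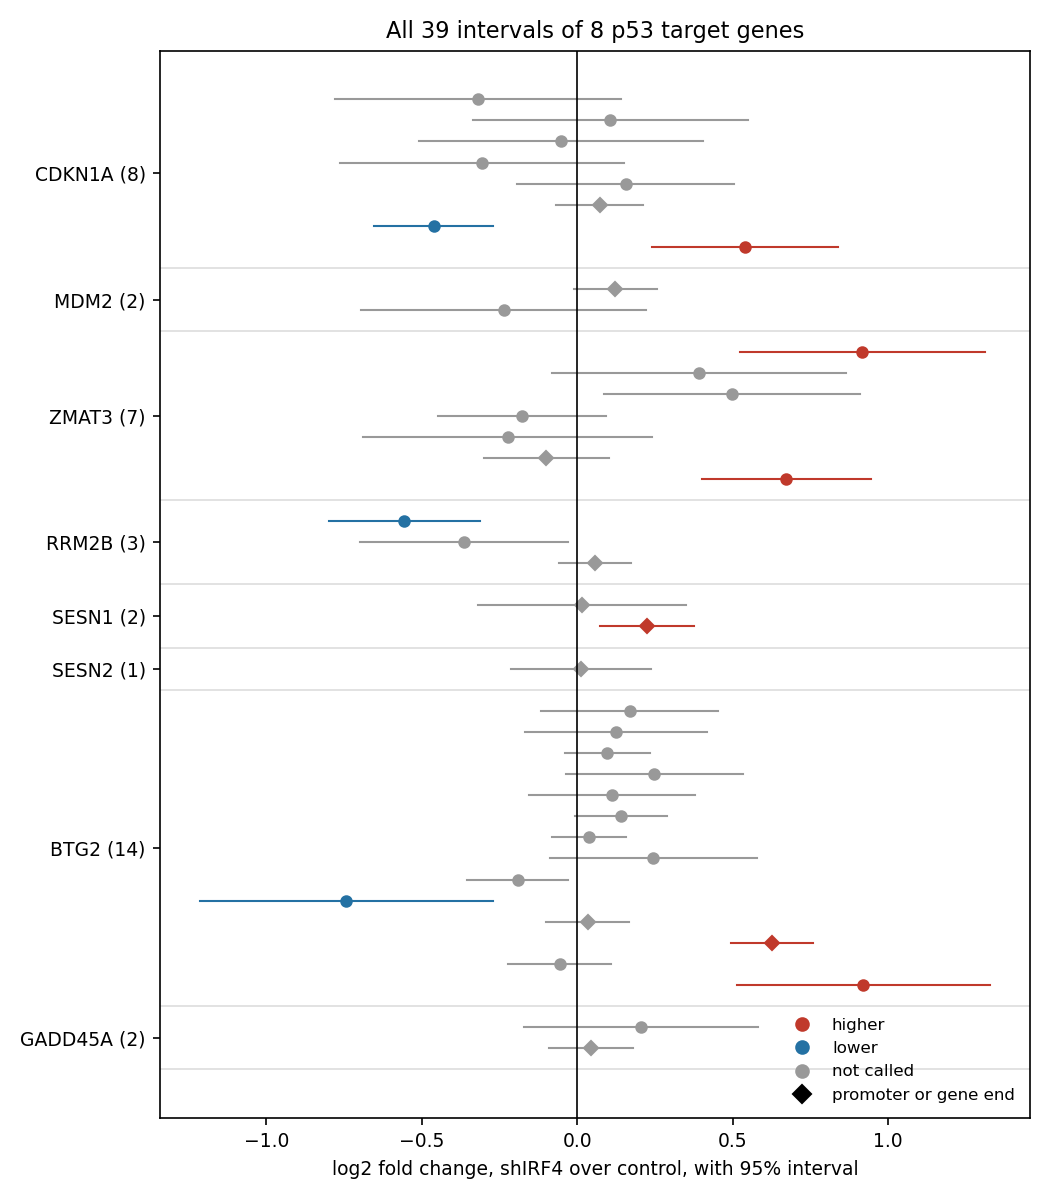
Log2 fold change in accessibility, shIRF4 over control, of the 39 member intervals, grouped by gene in the order of their coordinates (number of intervals in brackets). Points are edgeR estimates from 2 libraries per group, bars are 95% intervals, diamonds are intervals on a promoter window or over a gene end, and colour gives the call. Called intervals run from -0.74 to 0.92, and most diamonds lie near 0.

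Of the promoters, the outer one of SESN1 was the only one called. The members hold 7 intervals on a promoter window, of which 1 rose and 0 fell, where 4.71% of all 9857 such intervals were higher and 3.96% lower. Off promoter windows, 7.66% of all intervals were higher and 17.3% lower. Together with intervals over a gene end, the class held 10 members, of which 2 rose and 0 fell. Its median level was 19.0 CPM per kb of interval in shIRF4 and 18.5 CPM per kb in control. The 4 members in a gene body, all with a negative log2 fold change, 1 of them called lower, had a median of 17.1 CPM per kb in shIRF4 and 21.05 CPM per kb in control. Of all 73028 tested intervals, 35532 had a negative log2 fold change. The 25 members outside genes had a median of 14.5 CPM per kb in shIRF4 and 10.7 CPM per kb in control. These medians are taken in each group by itself and need not fall on the same interval. The median log2 fold change was 0.05 in the promoter and gene-end class, -0.23 in gene bodies and 0.12 outside genes.

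CDKN1A encodes p21, the inhibitor of cyclin-dependent kinases through which p53 arrests the cell cycle. Its promoter interval on chromosome 6 (36678345 to 36681209, hg38) held 53.3 and 54.7 CPM in the shIRF4 libraries, against 50.9 and 51.6 CPM in the control libraries. The groups did not overlap, but the difference was small and did not pass (log2 fold change 0.07, 95% interval -0.07 to 0.21, adjusted p = 0.491, edgeR). The best known p53 elements of CDKN1A lie upstream of its start, and no interval analysed here lay between 36667570 and 36678345.

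MDM2 encodes the ubiquitin ligase that marks p53 for degradation, and its inner promoter is the classical p53-responsive one. A single interval on chromosome 12 (68807359 to 68809460) spans both its outer and inner promoter windows. It held 64.0 and 64.6 CPM in shIRF4, against 57.8 and 60.2 CPM in control. Both shIRF4 values were higher, and the difference did not pass (0.12, 95% interval -0.01 to 0.26, adjusted p = 0.183, edgeR). The median of 46 neighbouring intervals within 1 Mb was also 0.12. The only other MDM2 interval, a weak one inside the gene at 68830225, held 4.07 and 6.22 CPM in shIRF4 and 7.05 and 4.46 CPM in control, which overlap. When gene bodies were ignored and only the nearest gene end counted, MDM2 also received 6 intervals inside its neighbour, the carboxypeptidase M gene, of which 2 were higher (1.31 at 68861947, adjusted p = 8.45e-05, and 0.60 at 68904612, adjusted p = 0.0496, edgeR).

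SESN1 and SESN2 encode sestrins, which restrain the growth kinase mTORC1 and limit oxidative damage. The outer SESN1 promoter (chromosome 6, 109094226 to 109095636) was the only promoter interval of the members that rose. It held 46.3 and 45.4 CPM in shIRF4, against 38.003 and 40.5 CPM in control (0.22, SE 0.07, adjusted p = 0.0283, edgeR). The rise is 1.17-fold, and its call was lost in 6 of 13 alternatives, among them leaving out shIRF4 replicate 1 (0.22, adjusted p = 0.0923), control replicate 1 (0.18, adjusted p = 0.309) or control replicate 2 (0.27, adjusted p = 0.0811). This interval also covers the promoter window of CEP57L1, the gene next to SESN1 on the other strand, and reads there cannot be credited to one gene.

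Inside SESN1, an interval over a second promoter (109009312 to 109009937) held 6.84 and 8.95 CPM in shIRF4 and 6.96 and 8.03 CPM in control, with overlapping groups (0.02, adjusted p = 0.964, edgeR). It lies in the overlap of SESN1 with ARMC2 and was given to the gene with the nearer end. The innermost SESN1 window, with the exact half-site, had no interval analysed here over it. At SESN2 the only interval was its promoter (chromosome 1, 28259161 to 28259983), with 16.4 and 15.3 CPM in shIRF4 and 14.6 and 17.0 CPM in control, which overlap (0.01, 95% interval -0.21 to 0.24).

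GADD45A encodes a stress protein that acts in growth arrest and DNA repair. Its gene-end interval (chromosome 1, 67684725 to 67686886) held 68.2 and 62.8 CPM in shIRF4, against 64.6 and 63.1 CPM in control. The groups overlapped, and the 95% interval of the log2 fold change ran from -0.09 to 0.18. RRM2B encodes the p53-inducible subunit of ribonucleotide reductase, which supplies nucleotides for DNA repair, and it had the most open member interval, with 54.3 CPM per kb in shIRF4 and 52.2 CPM per kb in control. That interval covers a gene end on chromosome 8 (102238234 to 102240145) and held 105 and 103 CPM in shIRF4, against 99.2 and 100.4 CPM in control (0.06, 95% interval -0.06 to 0.17, adjusted p = 0.514, edgeR).

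ZMAT3 encodes an RNA-binding zinc finger protein that acts downstream of p53 on splicing. Its promoter interval (chromosome 3, 179071212 to 179072527) held 23.6 and 19.7 CPM in shIRF4, against 23.0 and 24.2 CPM in control, which overlap (-0.10, 95% interval -0.30 to 0.10). BTG2 encodes an antiproliferative factor that speeds the shortening of mRNA tails and is also induced by B cell activation. Its promoter interval (chromosome 1, 203304796 to 203308024) held 59.1 and 59.3 CPM in shIRF4, against 58.6 and 57.1 CPM in control (0.03, 95% interval -0.10 to 0.17, adjusted p = 0.767, edgeR).

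TP53INP1 encodes a p53-induced protein of stress signalling and autophagy. By the assignment used it had no interval, because the interval over its gene end on chromosome 8 (94948904 to 94950215) has its midpoint 181 bp outside TP53INP1 and inside NDUFAF6. That interval held 26.1 and 28.4 CPM in shIRF4 and 25.2 and 26.2 CPM in control, and it was not called (0.07, 95% interval -0.11 to 0.25, adjusted p = 0.613, edgeR).

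**Figure D2:**
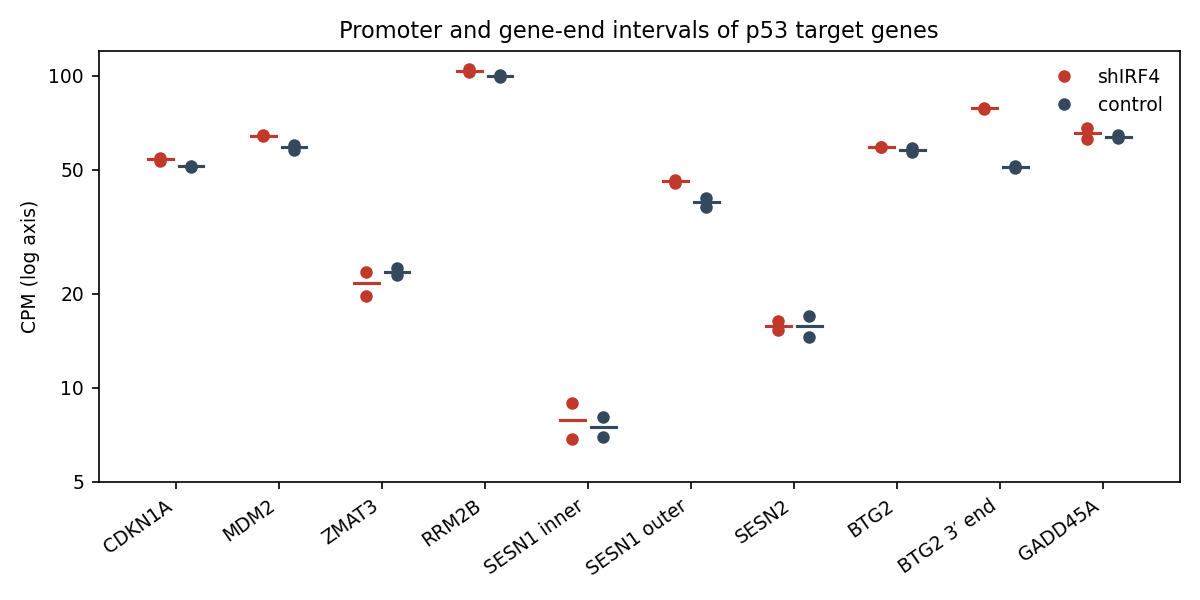
CPM (log axis) of the 10 member intervals on a promoter window or over a gene end, with shIRF4 libraries left of control libraries for each gene. Points are the 2 libraries of a group and lines their means. SESN1 outer is the interval shared with CEP57L1. The BTG2 3′ end stands apart, at 79.0 and 78.3 CPM in shIRF4 and 51.3 and 50.7 CPM in control.

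The member with the smallest p was the 3′ end of BTG2. The interval there (203308296 to 203312560) begins inside the gene and runs past its end at 203309602. It held 79.0 and 78.3 CPM in the shIRF4 libraries, against 51.3 and 50.7 CPM in the control libraries. The libraries of each group nearly coincided and the groups were far apart (mean 78.7 ± 0.502 CPM in shIRF4 and 51.0 ± 0.479 CPM in control, SD, n = 2 each). It rose 1.54-fold (log2 fold change 0.63, SE 0.06, adjusted p = 2.04e-07, edgeR) and stayed called in all 13 alternatives tried for single intervals, between 0.62 and 0.67. The median of 75 other intervals within 1 Mb was 0.05.

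A second BTG2 interval that rose lies 14430 bp past the gene (203324032 to 203324493). It held 7.06 and 6.33 CPM in shIRF4, against 2.85 and 4.24 CPM in control (0.92, SE 0.20, adjusted p = 0.00139, edgeR), on 34 to 130 counts per library. Between these rises, the interval at 203320408 held 30.02 and 29.2 CPM in shIRF4 and 30.9 CPM in each control library (-0.06, adjusted p = 0.676, edgeR).

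On the other side, 894 bp before the BTG2 start, a small interval of 370 bp (203304256 to 203304625) fell. It held 2.28 and 2.29 CPM in shIRF4, against 4.11 and 3.57 CPM in control (-0.74, SE 0.23, adjusted p = 0.0207, edgeR). It was the weakest member in shIRF4, with 21 to 49 counts per library, and its call was lost when shIRF4 replicate 1 (-0.73, adjusted p = 0.144) or control replicate 1 (-0.64, adjusted p = 0.168) was left out, and with glmTreat against a 1.2-fold change (adjusted p = 0.0657).

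The 11 BTG2 intervals that were not called ranged from -0.19 to 0.25. The 9 farther upstream included the strongest BTG2 interval (203289150 to 203291403), at 99.7 and 96.9 CPM in shIRF4 and 98.0 and 93.7 CPM in control, which overlap. The 8 of them more than 9 kb before the start all had a positive log2 fold change, between 0.04 and 0.25, and none passed. These 8 are neighbours, and 37496 of all 73028 tested intervals had a positive log2 fold change. Counts summed over the 14 intervals gave BTG2 464 ± 13.6 CPM in shIRF4 and 424 ± 3.09 CPM in control (0.12, SE 0.05, adjusted p = 0.140, edgeR over 16142 genes). That sum passed with library totals only (0.17, adjusted p = 0.0357), with cyclic loess offsets (0.25, adjusted p = 0.00275) and when shIRF4 replicate 2 was left out (0.14, adjusted p = 0.000118).

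**Figure D3:**
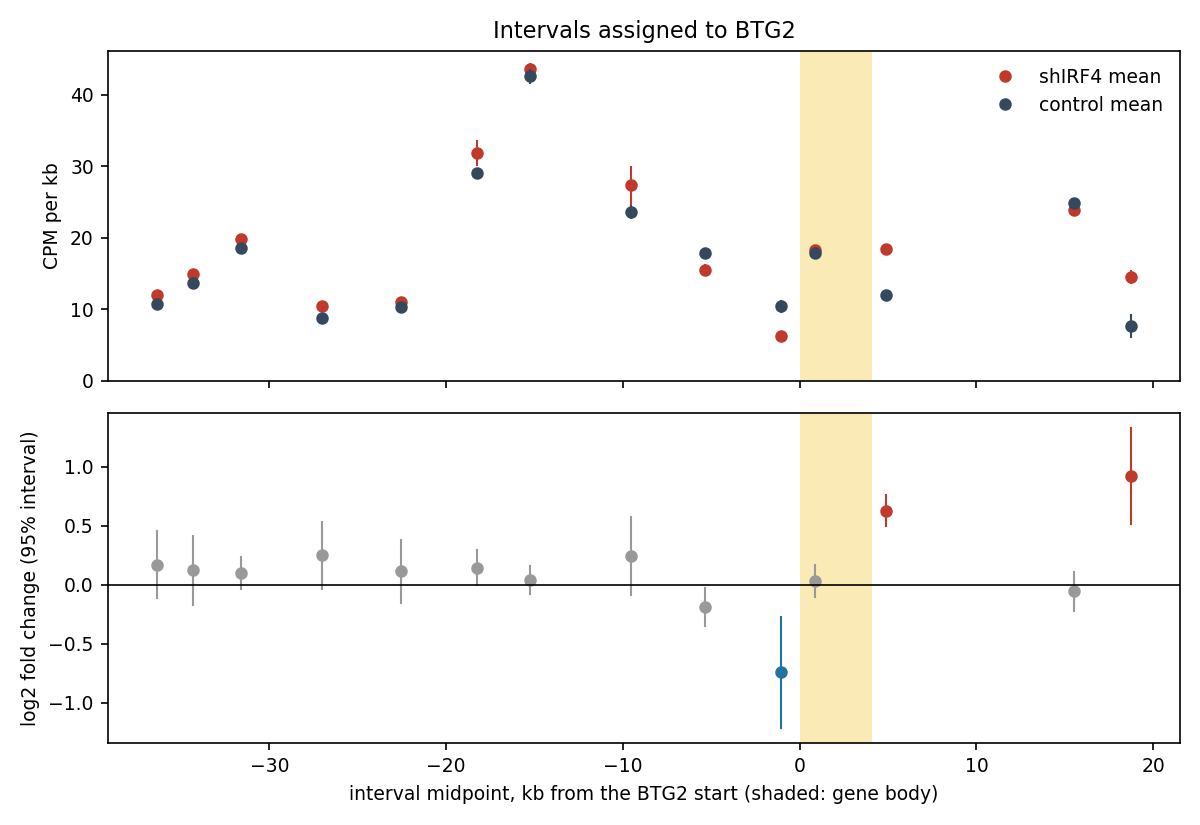
The 14 BTG2 intervals by the distance of their midpoint from the BTG2 start in kb, with the gene body shaded. The upper panel gives CPM per kb of interval (points are group means, vertical lines join the 2 libraries), and the lower panel the log2 fold change, shIRF4 over control, with its 95% interval. The called rises lie at and beyond the 3′ end and the called fall lies just before the start, on either side of a promoter interval at 0.03.

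CDKN1A held one change in each direction, both beyond its promoter. An interval in the gene body (36682331 to 36683475) held 18.5 and 20.4 CPM in shIRF4, against 26.2 and 26.9 CPM in control. Both shIRF4 libraries were lower, and it fell by 0.46 on the log2 scale (SE 0.09, adjusted p = 0.000702, edgeR). An interval 4651 bp past the gene (36691983 to 36692732) held 12.1 and 9.93 CPM in shIRF4, against 8.47 and 7.07 CPM in control, and rose by 0.54 (SE 0.14, adjusted p = 0.00826, edgeR). The call of the rise was lost when shIRF4 replicate 1 (0.37, adjusted p = 0.204) or control replicate 2 (0.40, adjusted p = 0.152) was left out, and with glmTreat (adjusted p = 0.0679). The 5 weak intervals upstream of CDKN1A, with 29 to 142 counts per library, were not called and ranged from -0.32 to 0.16. In sum the gene showed 104.7 ± 0.259 CPM in shIRF4 and 106.7 ± 2.03 CPM in control (-0.04, 95% interval -0.14 to 0.06, adjusted p = 0.572, edgeR).

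Both called ZMAT3 intervals were higher and lay outside the gene. The stronger one lies 1560 bp upstream of the gene (179074073 to 179075212). It held 20.7 and 14.8 CPM in shIRF4, against 11.8 and 11.3 CPM in control (0.67, SE 0.13, adjusted p = 0.000579, edgeR). The other lies 49807 bp past the gene's far end (178966720 to 178967416) and held 7.87 and 5.89 CPM in shIRF4, against 3.61 and 3.94 CPM in control (0.92, SE 0.19, adjusted p = 0.00104, edgeR).

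At ZMAT3 the shIRF4 libraries differed from each other, with replicate 1 above replicate 2 at 6 of its 7 intervals, whereas control replicate 1 was above replicate 2 at 4. When shIRF4 replicate 1, the deeper library, was left out, neither rise was called (0.37, adjusted p = 0.0946 at 179074073, and 0.65, adjusted p = 0.0813 at 178966720). Over all members, shIRF4 replicate 1 was above replicate 2 at 27 of 39 and control replicate 1 above replicate 2 at 18 of 39. The same share over all tested intervals was not counted, so this imbalance cannot be called particular to the members. The part of this imbalance in the results was not tested. The 5 other ZMAT3 intervals ranged from -0.22 to 0.50, with values of 5.92 and 4.80 CPM in shIRF4 and 4.45 and 3.42 CPM in control at 179015560, the nearest to passing (0.50, adjusted p = 0.0757, edgeR).

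At RRM2B, 1 of 3 intervals fell. It lies 5966 bp from the gene (102197408 to 102198535) and held 9.83 and 10.6 CPM in shIRF4, against 14.7 and 15.03 CPM in control. The groups were well separated and it fell by 0.56 on the log2 scale (SE 0.12, adjusted p = 0.00126, edgeR). Its neighbour at 102199169, 4811 bp from the gene, held 7.76 and 5.35 CPM in shIRF4 and 8.89 and 8.85 CPM in control and did not pass (-0.36, adjusted p = 0.111, edgeR). The median of 44 neighbouring intervals within 1 Mb was -0.03. Besides its gene-end interval, GADD45A had 1 weak interval 9035 bp from the gene, at 5.75 and 4.91 CPM in shIRF4 and 4.70 and 4.76 CPM in control (0.20, adjusted p = 0.468, edgeR).

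**Figure D4:**
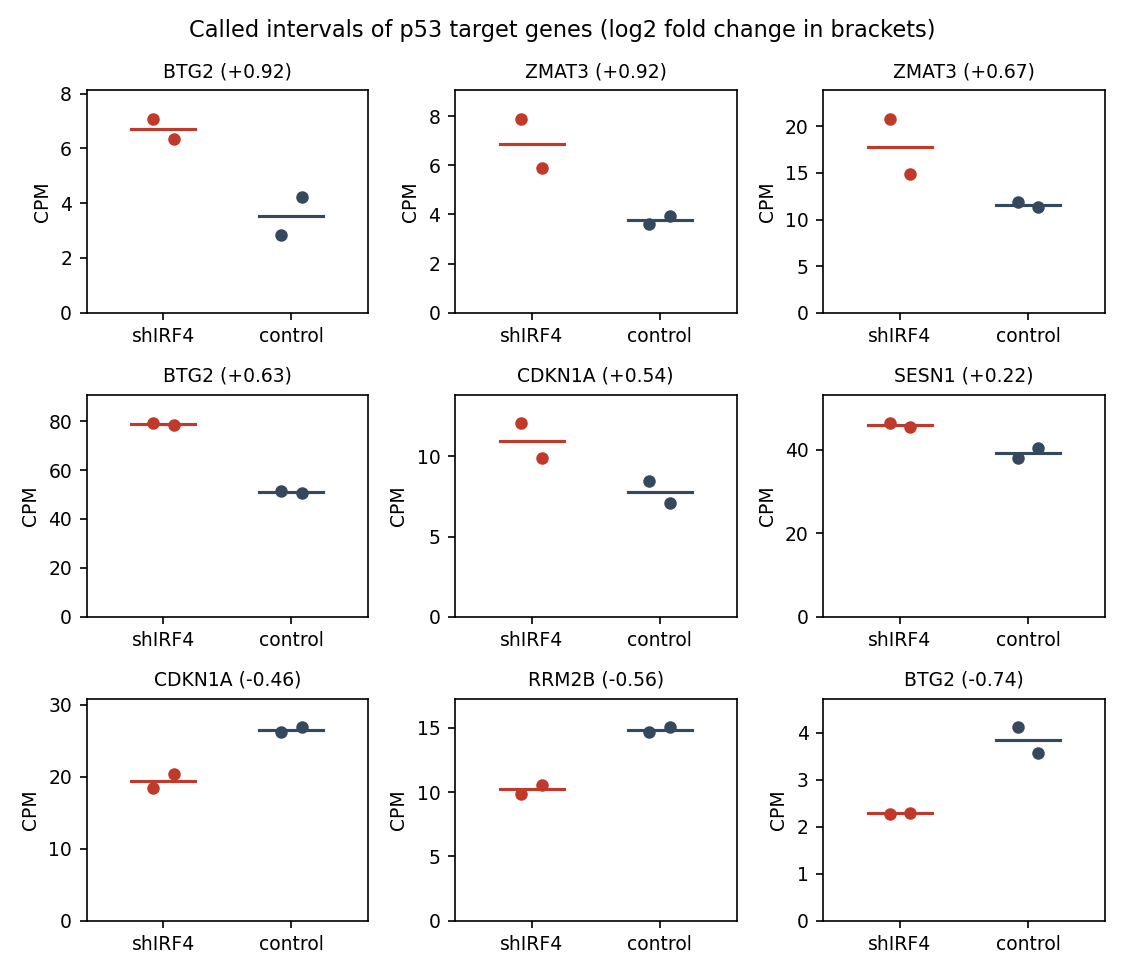
CPM in each library at the 9 called member intervals, ordered by log2 fold change (in brackets), with shIRF4 left of control. Points are libraries and lines are means of 2 libraries, and each axis starts at 0. The groups do not overlap in any panel, and the intervals shown were chosen because they passed the test on these same libraries. Among all tested intervals, both shIRF4 libraries lay above both control libraries at 28.7% and below them at 30.3%.

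With counts summed per gene, 1 of the 8 members with intervals passed, in the upward direction, where 6.73% of 16142 genes were higher and 13.4% lower. That gene was SESN1, with 53.7 ± 0.837 CPM in shIRF4 and 46.8 ± 2.56 CPM in control (SD, n = 2 each; 0.18, SE 0.06, adjusted p = 0.0424, edgeR), and most of its counts come from the interval shared with CEP57L1. Its call was lost without control replicate 1 (0.13, adjusted p = 0.358). The other sums ranged from -0.05 at RRM2B to 0.13 at ZMAT3. Without shIRF4 replicate 1 the ZMAT3 sum was -0.09, and without shIRF4 replicate 2 it was 0.28 and passed. MDM2 summed to 69.4 ± 1.93 CPM in shIRF4 and 64.7 ± 0.140 CPM in control (0.08, 95% interval -0.03 to 0.19), and with the nearest-end intervals added its sum passed (0.21, adjusted p = 0.00483, edgeR). Medians of the intervals within 1 Mb of the members ran from -0.03 at RRM2B to 0.12 at MDM2.

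Other genes of the p53 pathway were read from the same fit. Of 34 further p53 targets, 29 had 138 tested intervals, of which 15 were higher and 25 lower (10.9% and 18.1%), at 16 genes. The median log2 fold change was 0.01, as over all intervals. DRAM1, a lysosomal autophagy gene, had 7 of 13 intervals lower and 0 higher. Its interval of smallest p, 5853 bp from the gene, held 3.15 and 5.13 CPM in shIRF4, against 13.2 and 13.8 CPM in control (-1.81, SE 0.17, adjusted p = 7.81e-08, edgeR). AEN, an apoptosis-enhancing nuclease gene, fell at 1 of 5 intervals, with 10.7 and 11.0 CPM in shIRF4 and 19.5 and 20.9 CPM in control (-0.90, SE 0.11).

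Among genes of this list that act in cell death, PMAIP1, which encodes the BH3-only protein NOXA, had 2 of 31 intervals higher and 4 lower, while FAS, a death receptor gene, had 2 of 4 higher and 0 lower, and BAX had 1 of 3 lower. The interval of smallest p lay 63475 bp from PMAIP1, 69477 bp from FAS and 4382 bp from BAX. BCL2L1, which encodes the survival protein BCL-XL, had 1 of 12 higher and 5 lower. BBC3 with 6 intervals, and TNFRSF10B, APAF1 and PIDD1 with 2 each, had none called. PPM1D, a phosphatase gene that switches p53 signalling off, rose at 1 of 3 intervals, with 5.59 and 5.35 CPM in shIRF4 and 3.19 and 2.68 CPM in control (0.91, SE 0.20). Of the 22 intervals on a promoter window in this list, 3 rose and 0 fell, at the repair gene XPC (0.24, SE 0.08), at SPATA18 (0.29, SE 0.10) and at CYFIP2. Over all promoter-window intervals, 4.71% were higher and 3.96% lower.

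Of p53 itself and its regulators, 14 genes of which 13 had 54 tested intervals, 4 intervals were higher and 9 lower (7.41% and 16.7%), and 0 of 9 promoter intervals were called in either direction. The called share of all promoter-window intervals was 8.66%. USP7, the deubiquitinase gene whose product stabilises MDM2 and p53, had 2 of 15 intervals higher and 3 lower. The one of smallest p, inside the gene, held 3.37 and 3.71 CPM in shIRF4, against 11.2 and 13.02 CPM in control (-1.80, SE 0.16, adjusted p = 4.92e-08, edgeR). CHEK2, a checkpoint kinase gene, had 2 of 3 intervals lower, and MDM4, the MDM2 relative that inhibits p53, had 2 of 9 higher and 1 lower.

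Paralogs of the members gave 7 higher and 10 lower of 64 intervals (10.9% and 15.6%), among them the 9 of MDM4 already counted with the regulators. GADD45B, a relative of GADD45A on chromosome 19, had 6 of 9 intervals lower and 0 higher, with 22.7 and 23.5 CPM in shIRF4 and 31.0 and 34.7 CPM in control at the one of smallest p (-0.51, SE 0.09, adjusted p = 0.000127, edgeR). BTG1, a relative of BTG2, had 2 of 10 higher and 2 lower. The difference between the members and these lists was not tested.

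**Figure D5:**
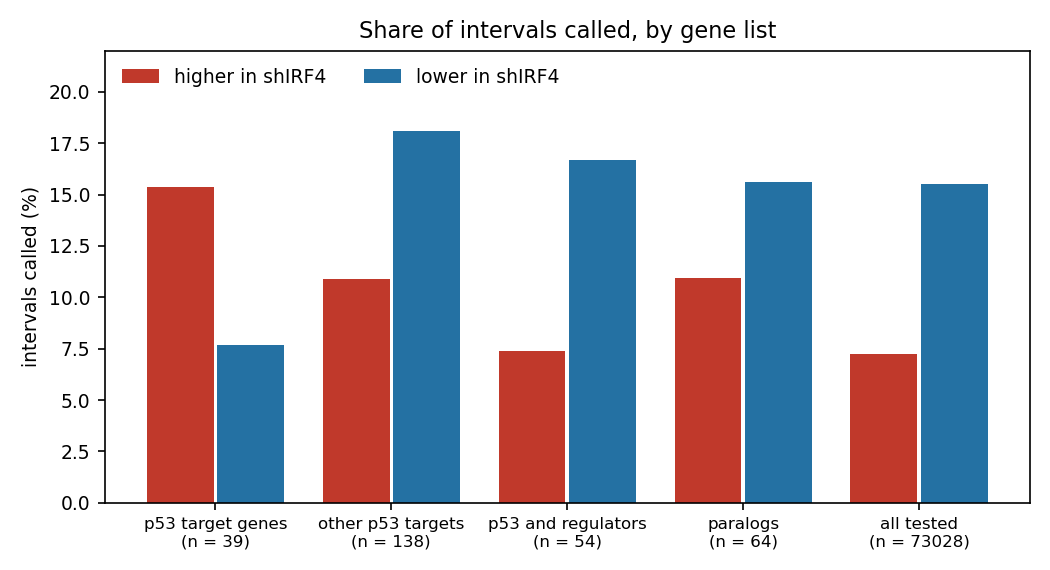
Share of tested intervals called higher or lower in shIRF4 (percent) for the 9 p53 target genes, other p53 targets, p53 and its regulators, paralogs of the members, and all tested intervals, with the number of intervals under each. Members show 15.4% higher and 7.69% lower, all tested intervals 7.26% higher and 15.5% lower. When shIRF4 replicate 1 was left out, the balance of the members' calls turned, and fewer of all intervals were called. The regulators and the paralogs share the 9 intervals of MDM4.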

How the data were processed

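The authors deposited raw read counts per interval of a merged TMD8 peak list, made with featureCounts 2.0.0, per the file headers, which also show that reads were reduced to their 5′ end, that multimapping reads were included and that marked duplicates were ignored. The submitters' processing notes name hg38, and the aligner and peak caller are not given in the sources used here. The file headers also name fractional counting, yet all counts were whole numbers, so how multimapping reads were weighed is not known. Counts came to 9112860 to 17954924 per library, and precision at weak intervals is limited by counting.

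Intervals were assigned with a RefSeq gene table (GRCh38.p14). Where several gene bodies held a midpoint, the gene with the nearest end was taken. Counts were tested with edgeR 4.0.16 (limma 3.58.1, R 4.3.3): filterByExpr, TMM factors, glmQLFit with legacy=FALSE and glmQLFTest, with the group as the only term. SE is the log2 fold change divided by the square root of F. DESeq2 1.42.0 was an alternative. On simulated data with 2 against 2 libraries and 73034 intervals tested, 43% of 1.5-fold and 87% of 2-fold changes among 200 were recovered, with 0 wrong signs. Of the unchanged intervals, 6 were called. The simulation gave both groups the same dispersion, whereas the real shIRF4 pair varied more than the control pair. It also changed only 200 intervals, none of them among the weakest, whereas 16639 were called in the real data. The recovered shares need not hold for the real data. Values of genes in the other lists are those of their interval of smallest p, unless said. Members and lists were chosen with earlier results of these data known. Values in CPM follow TMM scaling.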

Additional observations from a re-analysis of the deposited data

How the results depend on the processing

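Fits were repeated under 15 alternatives, of which counting the control pair as 1 sample was chosen after seeing the data. The 6 higher and 3 lower member intervals became 2 and 0 in DESeq2, which called 4566 of all intervals, against 16639 by edgeR. Leaving out 1 library gave 2 to 8 higher and 2 to 4 lower members, with 2 higher and 4 lower, the reverse balance, without shIRF4 replicate 1, and 9043 to 20033 calls over all intervals. The 1 member gene past the threshold in summed counts became 2 with library totals only, with cyclic loess offsets and by nearest gene end. It became 0 in DESeq2, with glmTreat and with the control pair as 1 sample, and ranged from 0 to 3 with 1 library left out. Library totals only moved the median of all intervals to 0.06, and the sums of CDKN1A, RRM2B and SESN2 turned positive, at 0.0084, 0.0019 and 0.049.

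With 1 library left out, log2 fold changes near 0 took either sign. They ran from -0.14 to 0.26 at the inner SESN1 promoter, from -0.090 to 0.13 at the SESN2 promoter and from -0.012 to 0.094 at the GADD45A gene end. The sums ran from -0.087 to 0.28 at ZMAT3, from -0.11 to 0.11 at SESN2 and from -0.028 to 0.087 at GADD45A. Same-numbered libraries did not deviate together (correlation -0.027 over 2 pairs), so the numbers were not taken to pair them. With the replicate number as a block, 9 members and 16612 of all intervals were called, and the SESN2 sum was 0.0054. The cause of these changes was not tested. Weak intervals, with counts from 21 per library, limit what can be called.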
